A study of Mus musculus with 6 samples.

Results

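The variable segments of the T cell receptor genes were followed in 3 subsets of mouse intraepithelial lymphocytes (IEL), T cells residing between the epithelial cells of the small intestine, on 6 Affymetrix arrays. The subsets were TCRgd CD8aa, TCRab CD8aa and TCRab CD8ab, named after the receptor type and the CD8 dimer on which the cells were sorted. The titles of the TCRgd arrays write TCRgb, and their source descriptions, which write TCRgd, were followed. All came from untreated C57BL/6 mice younger than 8 weeks, and every subset had 2 arrays, 1 from each of 2 experiments. Each experiment sorted all 3 subsets from its own pool of 20 mice, so the replicate number is the number of the experiment, and no array stands for a single mouse. Members were the probe sets whose annotated symbol starts with Trav, Trbv, Trgv, Tcra, Tcrb, Tcrd or Tcrg, together with 1 probe set that carries no symbol, called the unnamed probe set here. This gave 14 of 12488 probe sets, of which 6 are named for alpha segments, 4 for beta segments and 3 for gamma segments. The first 13 were chosen by name. The unnamed probe set was chosen for its large difference between TCRgd CD8aa and the TCRab subsets on these arrays, so its values are given as a description and were not tested. Where several probe sets carry the same symbol they are told apart by their mean signal over the arrays (brighter and dimmer, or brightest, middle and dimmest).

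A T cell receptor is a pair of chains, alpha with beta in TCRab cells and gamma with delta in TCRgd cells. Each chain gene is assembled in the developing lymphocyte by joining a variable segment to a joining segment, with a diversity segment between them in beta and delta, and the joined exon is spliced to a constant region. T cells of either type can also carry rearranged or transcribed genes of chains that they do not display. In the gut epithelium of mice, TCRgd cells are abundant and use a restricted set of gamma segments, and the CD8aa homodimer is typical of TCRgd cells and of the unconventional TCRab cells, while conventional CD8 T cells carry CD8ab.

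The annotated segments are a small sample of those in the genome. The RefSeq table of the mouse assembly GRCm38.p6 lists 130 Trav segments on chromosome 14, 35 Trbv segments on chromosome 6 and 7 Trgv segments on chromosome 13, and the array symbols cover 4, 2 and 3 of these. In that table Trgv4 lies with Trgv7, Trgv6 and Trgv5 on the side of the gamma locus that holds the constant gene Trgc1, and Trgv2 and Trgv1 lie next to each other between Trgc2 and Trgc4. Expression arrays of this type usually place their probes toward the 3′ end of a transcript, where a receptor messenger RNA carries its constant region. The positions of the probes were not used here, so a signal named for a segment is the signal of that probe set and need not be that of the segment alone. The brighter Trbv1, the brighter Trbv13-2 and the brightest Trav9d-3 probe sets have identifiers ending in _s_at or _f_at, which mark probes shared with other transcripts by design.

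The sort markers and the quality controls were read first. Cd8b1, the beta chain of CD8, gave 28.1 in experiment 1 and 763 in experiment 2 in TCRgd CD8aa, 29.5 and 182 in TCRab CD8aa, and 17647 and 27590 in TCRab CD8ab. Its signal in both CD8aa subsets was thus higher in experiment 2, most of all in TCRgd CD8aa. Of 10 enterocyte markers, 7 were on the array, and the summed signal of their 8 probe sets was 840 and 24683 in TCRgd CD8aa, against 1401 and 634 in TCRab CD8aa and 1370 and 767 in TCRab CD8ab. The TCRgd CD8aa array of experiment 2 therefore stood apart, and values without it are given below. Of 5 goblet and Paneth cell markers, Tff3 and Clca1 were on the array, with summed signals of 157 and 3711 in TCRgd CD8aa, 280 and 227 in TCRab CD8aa and 305 and 410 in TCRab CD8ab. The part of other cells in the results below was not tested. For beta-actin the 3′ control signal divided by the 5′ one, a measure of RNA integrity and of labelling along the transcript, lay between 1.41 and 1.76 on the arrays of experiment 1 and between 40.4 and 52.2 on those of experiment 2. The arrays of the 2 experiments differed in this way in all subsets alike. Of 7 B cell markers, 6 were on the array, with summed signals of 951 and 1634 in TCRgd CD8aa, 758 and 784 in TCRab CD8aa and 736 and 1498 in TCRab CD8ab over 9 probe sets. Of the T cell markers, the tested probe sets of Cd3g, Cd3d and Cd3e did not go below 493 on any array, which was the Cd3d signal of TCRab CD8ab in experiment 2. The CD4 marker Cd4 had 164 and 207 in TCRgd CD8aa, 189 and 91.2 in TCRab CD8aa and 109 and 189 in TCRab CD8ab.

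Signals are MAS5 units on a linear scale, set here to a common trimmed mean, and differences are given as log2 of the first subset over the second. A probe set is called when its adjusted p (limma, Benjamini-Hochberg over all 8299 tested probe sets) is under 0.05. A standard error (SE) is that of the limma fit with the experiment as a block, pooled over all 6 arrays, so a probe set has the same SE in every comparison of 2 single subsets. The fit without the block, planned as the first, called 0 of 8299 probe sets in each of the 4 comparisons, with 34 to 187 at an unadjusted p under 0.05. A call named below is therefore one of the fit with the block, and both adjusted p-values stand beside it.

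Gamma segments had the highest signal in TCRgd CD8aa, an intermediate one in TCRab CD8aa and the lowest in TCRab CD8ab, on all 3 probe sets and in both experiments. The probe set named for Trgv4 alone showed the widest range of the 3. It gave 35231 in experiment 1 and 19622 in experiment 2 in TCRgd CD8aa, 8289 and 6261 in TCRab CD8aa, and 3015 and 1714 in TCRab CD8ab. The ranges of the subsets did not overlap. In sorted populations, fewer cells with a transcript and less of it per cell cannot be told apart, and the share of cells that used a given segment was not measured. The TCRgd CD8aa signal was 11.7-fold that of TCRab CD8ab in experiment 1 and 11.4-fold in experiment 2, and 4.25-fold and 3.13-fold that of TCRab CD8aa. The log2 difference of TCRgd CD8aa from the mean of both TCRab subsets was 2.70 ± 0.25 (SE, n = 2 against 4 arrays), and limma called it with the block (adjusted p = 0.00665) and not without it (adjusted p = 1.00). Against TCRab CD8ab alone the difference was 3.53 ± 0.29, called with the block (limma adjusted p = 0.000908) and not without it (adjusted p = 0.533). With any 1 of the 6 arrays left out, these differences were 2.58 to 2.82 and 3.41 to 3.65 in the fit with the block. Where a TCRgd CD8aa array was left out, 1 array stood for that subset, so its spread was not tested there.

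**Figure D1:**
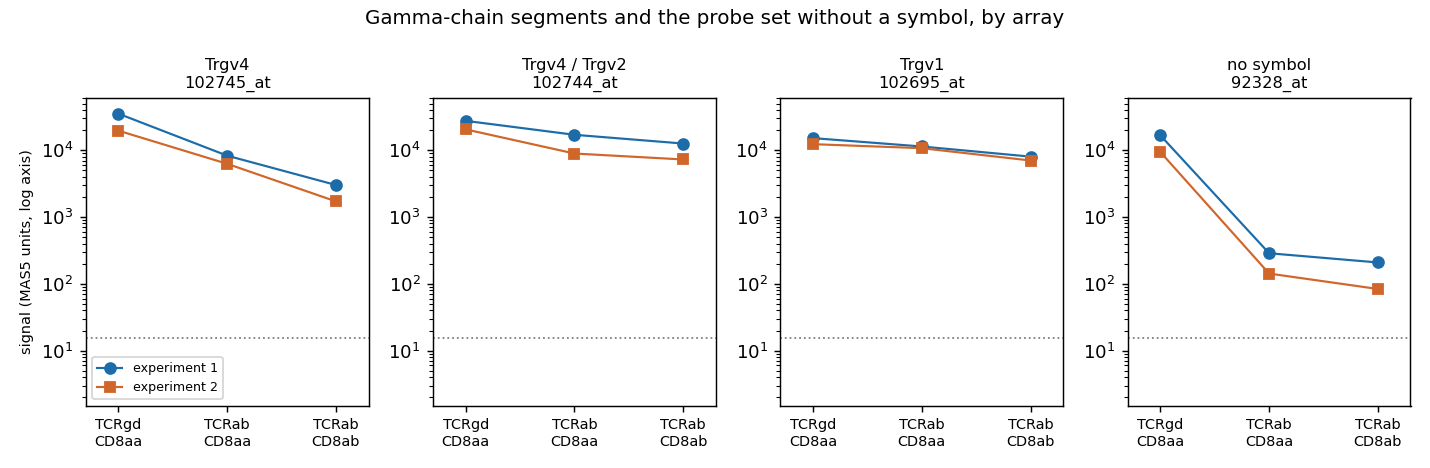
Signal of the 3 gamma-chain probe sets and of the unnamed probe set, in MAS5 units on a log axis, for each subset (horizontal axis) and experiment (blue circles for experiment 1, orange squares for experiment 2, each joined by a line). The dotted line is the floor of 15.3. In all 4 panels TCRgd CD8aa, on the left, is highest and TCRab CD8ab, on the right, lowest in both experiments, with the narrowest range for Trgv1 and the widest for the unnamed probe set.

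The 2 TCRab subsets also differed in Trgv4. TCRab CD8aa was 2.75-fold above TCRab CD8ab in experiment 1 and 3.65-fold above it in experiment 2, with a log2 difference of 1.66 ± 0.29 that was called with the block (limma adjusted p = 0.0353) and not without it (adjusted p = 1.00). This is a comparison of cells sorted for the same receptor type. Limma with the block no longer called it without either TCRab CD8aa array (adjusted p = 0.0898 and 0.404 without that of experiments 1 and 2) or either TCRab CD8ab array (0.0545 and 0.177). The difference of TCRgd CD8aa from TCRab CD8aa, 1.87 ± 0.29, was not called in either fit (limma adjusted p = 0.145 with the block and 1.00 without it). Without the TCRgd CD8aa array of experiment 1 it was 1.75 in the fit with the block. That subset then keeps 1 array, so no call is given.

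The joint Trgv4 and Trgv2 probe set carries both symbols and is not assigned to either. Its signals were 27530 and 20510 in TCRgd CD8aa, 17015 and 8923 in TCRab CD8aa, and 12583 and 7267 in TCRab CD8ab. The TCRgd CD8aa arrays lay above all TCRab arrays, while the 2 TCRab subsets overlapped across experiments. Its log2 difference from the mean of both TCRab subsets was 1.13 ± 0.26, which was not called (limma adjusted p = 0.623 with the block).

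Trgv1 was read by 1 probe set. It had signals of 15177 and 12319 in TCRgd CD8aa, 11368 and 10726 in TCRab CD8aa, and 8015 and 7015 in TCRab CD8ab. The subsets kept their order without overlap, but TCRgd CD8aa was only 1.34-fold and 1.15-fold above TCRab CD8aa and 1.89-fold and 1.76-fold above TCRab CD8ab. The log2 difference from the mean of both TCRab subsets was 0.59 ± 0.24 and was not called (limma adjusted p = 1.00 with the block). In cells sorted for the alpha beta receptor the signal of this gamma probe set was thus 7015 or more on every array, against a floor of 15.3.

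The unnamed probe set had the widest gap of all members. Its signals were 16680 and 9399 in TCRgd CD8aa, against 287 and 142 in TCRab CD8aa and 209 and 83.7 in TCRab CD8ab. TCRgd CD8aa was thus 58.2-fold and 66.0-fold above TCRab CD8aa, and 79.9-fold and 112-fold above TCRab CD8ab, in experiments 1 and 2. The log2 difference from the mean of both TCRab subsets was 6.09 in experiment 1 and 6.43 in experiment 2. Between the TCRab subsets its difference was 0.46 and 0.77, in favour of TCRab CD8aa. The annotation used here does not list it, so it has no gene name here. Its signal was lower in experiment 2 in every subset, with log2 differences from experiment 1 of −0.83 in TCRgd CD8aa, −1.01 in TCRab CD8aa and −1.32 in TCRab CD8ab.

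Beta segments had the lowest measured signal in TCRgd CD8aa within each experiment on all 4 probe sets. For the dimmer Trbv1 probe set this order is not settled in experiment 2, where TCRgd CD8aa and TCRab CD8aa were near the floor. The size of the gap ranged widely. The brighter Trbv1 probe set had signals of 24662 and 10083 in TCRgd CD8aa, 31396 and 12321 in TCRab CD8aa, and 31159 and 22142 in TCRab CD8ab. The TCRgd CD8aa array of experiment 1 lay above the TCRab arrays of experiment 2, so this probe set did not separate the receptor types across experiments. Within an experiment the TCRab CD8aa signal was 1.27-fold and 1.22-fold that of TCRgd CD8aa. The log2 difference of TCRgd CD8aa from the mean of both TCRab subsets was −0.53 ± 0.29 and was not called (limma adjusted p = 1.00 with the block).

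The dimmer Trbv1 probe set had 22.1 and 17.7 in TCRgd CD8aa, 222 and 19.1 in TCRab CD8aa, and 321 and 165 in TCRab CD8ab. TCRgd CD8aa was near the floor on both arrays, and TCRab CD8aa was near it in experiment 2 alone. Values this close to the floor of 15.3 and under the filter level of 56.4 do not fix a ratio, so no fold is given, and the probe set passed the filter only through TCRab arrays. In TCRgd CD8aa against TCRab CD8ab it was not called (limma adjusted p = 0.161 with the block). Fits that left out an array keep 1 array in a subset and carry the same limit, so no call of theirs is given for this probe set.

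**Figure D2:**
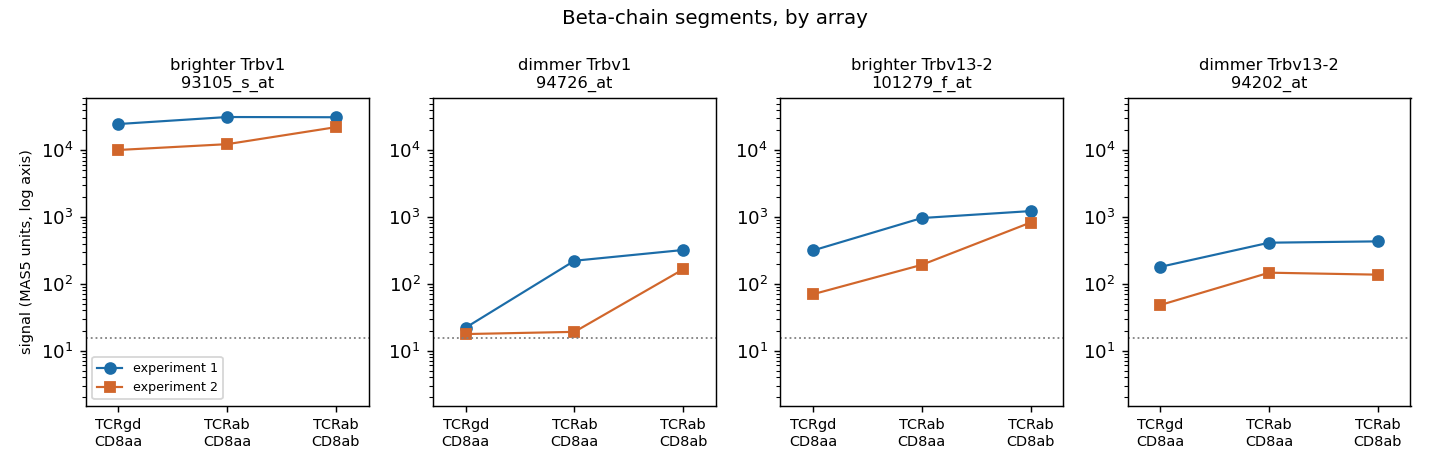
Signal of the 4 beta-chain probe sets, in MAS5 units on a log axis, for each subset (horizontal axis) and experiment (blue circles for experiment 1, orange squares for experiment 2). The dotted line is the floor of 15.3. TCRgd CD8aa, on the left, has the lowest point within each experiment in every panel, by 1.22-fold to 2.20-fold for the brighter Trbv1 probe set. The dimmer Trbv1 probe set nears the floor there. In experiment 2 it does so in TCRab CD8aa too, and the order of these 2 subsets is not settled.

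Trbv13-2 was read by 2 probe sets. The brighter had 316 and 69.9 in TCRgd CD8aa, 966 and 192 in TCRab CD8aa, and 1227 and 827 in TCRab CD8ab. TCRab CD8ab was 3.88-fold above TCRgd CD8aa in experiment 1 and 11.8-fold above it in experiment 2, and TCRab CD8aa 3.06-fold and 2.75-fold. The log2 difference of TCRgd CD8aa from TCRab CD8ab was −2.76 ± 0.47, called with the block (limma adjusted p = 0.0400) and not without it (adjusted p = 1.00). Without the TCRab CD8ab array of experiment 2 it was −1.92 and limma with the block did not call it (adjusted p = 0.119). The dimmer had 180 and 48.2 in TCRgd CD8aa, 413 and 147 in TCRab CD8aa, and 432 and 137 in TCRab CD8ab. On it TCRab CD8aa was 0.955-fold and 1.07-fold TCRab CD8ab, and the log2 difference of TCRgd CD8aa from TCRab CD8ab was −1.39 ± 0.42, which was not called (limma adjusted p = 0.336 with the block). In experiment 2 TCRab CD8aa was 2.75-fold above TCRgd CD8aa on the brighter probe set and 3.05-fold on the dimmer, while TCRab CD8ab was 11.8-fold above it on the brighter and 2.84-fold on the dimmer. The 2 probe sets thus differed in TCRab CD8ab of that experiment.

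Alpha segments split into 2 bright probe sets that were lower in TCRgd CD8aa and 4 dim ones. The brightest Trav9d-3 probe set had 4989 and 2594 in TCRgd CD8aa, 14626 and 8360 in TCRab CD8aa, and 12268 and 12578 in TCRab CD8ab. Both TCRgd CD8aa arrays lay below all 4 TCRab arrays, which held for no other alpha or beta probe set that was tested. TCRab CD8aa was 2.93-fold and 3.22-fold above TCRgd CD8aa, and TCRab CD8ab 2.46-fold and 4.85-fold. The log2 difference from the mean of both TCRab subsets was −1.70 ± 0.28 and was not called (limma adjusted p = 0.195 with the block). Without the TCRgd CD8aa array of experiment 1 it was −1.98 in the fit with the block, and −1.90 against TCRab CD8aa alone. That subset then keeps 1 array, so no call is given. Against TCRab CD8ab the difference was −1.79 and was not called with all arrays (limma adjusted p = 0.0641 with the block). With the block and quantile normalization limma called it there (adjusted p = 0.0270). With the block but no filter on dim probe sets, or no intensity trend, limma did not (adjusted p = 0.585 and 0.378). Over all settings of the fit with the block this difference ranged from −2.24 to −1.33.

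The middle Trav9d-3 probe set had 1967 and 96.9 in TCRgd CD8aa, 7385 and 1189 in TCRab CD8aa, and 8318 and 657 in TCRab CD8ab. Within each experiment TCRgd CD8aa was the lowest, but its array of experiment 1 lay above both TCRab arrays of experiment 2. The log2 difference from the mean of both TCRab subsets was −2.59 ± 0.35, called with the block (limma adjusted p = 0.0423) and not without it (adjusted p = 1.00). Against TCRab CD8ab it was −2.42 ± 0.40, also called with the block (limma adjusted p = 0.0382) and not without it (adjusted p = 1.00). Without the TCRab CD8ab array of experiment 1 limma with the block called it in neither comparison (adjusted p = 0.0793 and 0.0720), nor without that of experiment 2 (0.107 and 0.124).

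**Figure D3:**
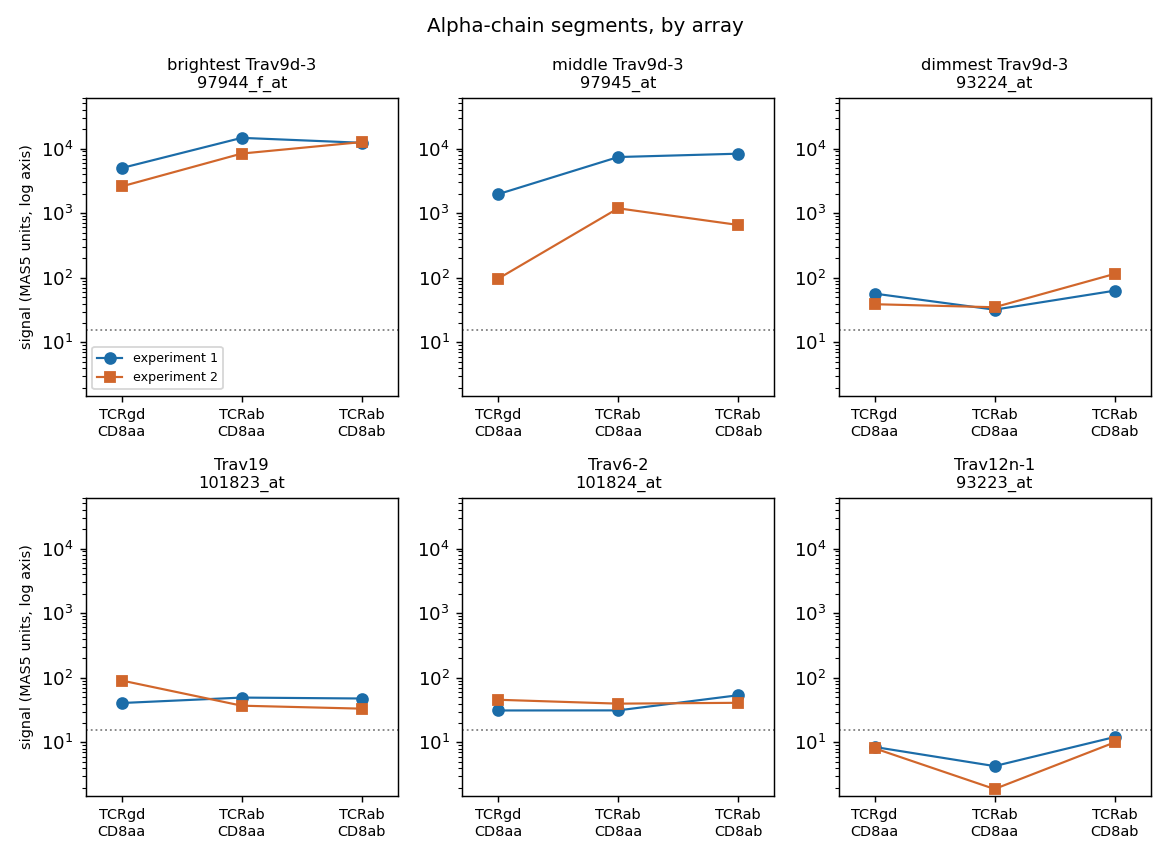
Signal of the 6 alpha-chain probe sets, in MAS5 units on a log axis, for each subset (horizontal axis) and experiment (blue circles for experiment 1, orange squares for experiment 2). The dotted line is the floor of 15.3. The first 2 panels are lower in TCRgd CD8aa on the left, the next 3 stay between 31.2 and 115 on all arrays, and Trav12n-1 lies below the floor throughout.

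The dim alpha probe sets did not separate the receptor types. Signals this low cannot show whether their segments follow the receptor type or not. The dimmest Trav9d-3 probe set had 56.9 and 39.0 in TCRgd CD8aa, 32.1 and 35.0 in TCRab CD8aa, and 63.1 and 115 in TCRab CD8ab, so the TCRgd CD8aa arrays lay among the others. It just passed the filter on dim probe sets, which asked for 2 arrays above 56.4. Trav19 had 40.7 and 90.7 in TCRgd CD8aa, 49.4 and 37.0 in TCRab CD8aa, and 47.8 and 33.3 in TCRab CD8ab, and missed that filter with 1 array above it. Trav6-2 ranged from 31.2 to 53.7 over all 6 arrays, and its subsets overlapped. Trav12n-1 ranged from 1.90 to 12.1, below the floor on all 6 arrays, where values have no order. Trav19, Trav6-2 and Trav12n-1 were therefore not tested.

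Of the 14 members 11 passed the filter, and 10 of these carry a symbol and were tested. In TCRgd CD8aa against both TCRab subsets, limma with the block called 1 higher (Trgv4) and 1 lower (the middle Trav9d-3 probe set), beside 0.0843% of all 8299 probe sets called, 0.0361% higher and 0.0482% lower. Without the block it called 0 of the 10, beside 0% of all probe sets, and 5 of the 10 had an unadjusted p under 0.05, beside 66 of all 8299. In TCRgd CD8aa against TCRab CD8ab the block gave 1 higher and 2 lower, beside 0.554% of all, 0.337% higher and 0.217% lower. In TCRgd CD8aa against TCRab CD8aa it gave 0 members, beside 0.0241% of all, 0.012% higher and 0.012% lower, and 6 of the 10 had an unadjusted p under 0.05, beside 172 of all 8299. In TCRab CD8aa against TCRab CD8ab it gave 1 higher, beside 0.819% of all, 0.518% higher and 0.301% lower. Without the block these 3 comparisons had 5, 2 and 1 of the 10 at an unadjusted p under 0.05, beside 168, 34 and 187 of all 8299, and 0 called. Without the filter on dim probe sets, or without the intensity trend in eBayes, the fit with the block called 0 members in all 4 comparisons (for Trgv4 in TCRgd CD8aa against TCRab CD8ab, adjusted p = 0.335 and 0.0902).

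The direction within experiments was more regular than these calls. In both experiments 3 of the 10 tested members had TCRgd CD8aa above both TCRab subsets, all of them gamma probe sets, where 7.9% of all tested probe sets did. TCRgd CD8aa was below both in 6 of the 10, all of them alpha or beta probe sets, where 9.09% of all did. Among these 6 is the dimmer Trbv1 probe set, which passed the filter only through TCRab arrays. In experiment 2 it had 17.7 in TCRgd CD8aa and 19.1 in TCRab CD8aa, near the floor, so it is no support for this direction. The tested member in neither group was the dimmest Trav9d-3 probe set. Across experiments, both TCRgd CD8aa arrays lay above all 4 TCRab arrays for 3 members (1.98% of all) and below all 4 for 1 member (1.93% of all). The median log2 difference of the 10 in TCRgd CD8aa against both TCRab subsets was −0.96, with 3 above 0, and that of all tested probe sets was −0.03.

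**Figure D4:**
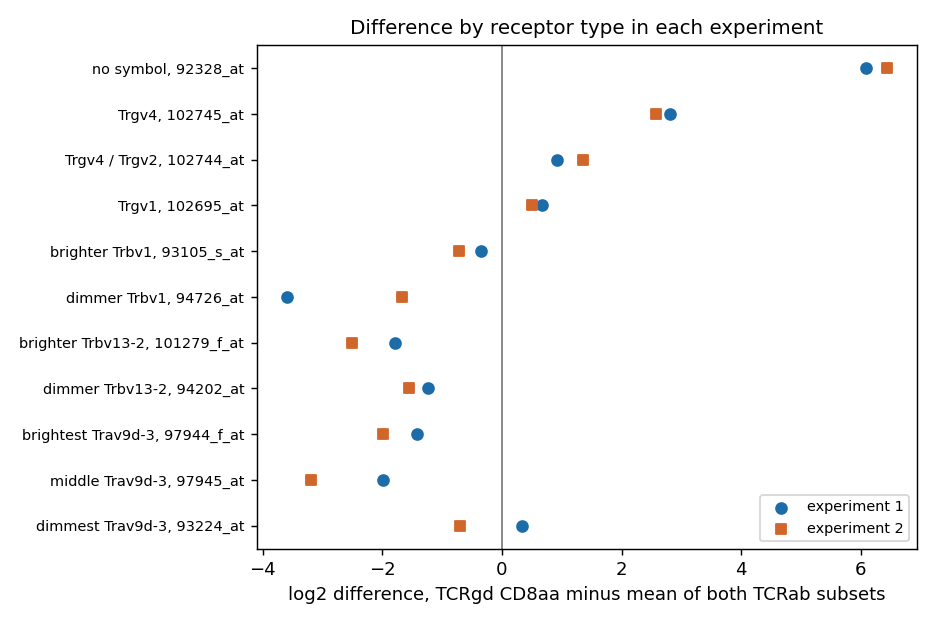
Log2 difference of TCRgd CD8aa from the mean of both TCRab subsets (horizontal axis) in experiment 1 (blue circles) and experiment 2 (orange squares) for the 11 members past the filter. The gamma probe sets and the unnamed one lie right of 0 in both experiments, the other alpha and beta probe sets left of it, and the dimmest Trav9d-3 probe set has 0.34 and −0.70 on either side. The dimmer Trbv1 probe set was near the floor in TCRgd CD8aa, so its points do not fix a difference.

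As measured, the full order of the subsets was the same in both experiments for 6 of the 10 tested members. TCRgd CD8aa was above TCRab CD8aa and TCRab CD8aa above TCRab CD8ab for the 3 gamma probe sets, which was so for 2.68% of all tested probe sets. The reverse order held for the brighter Trbv13-2 and the dimmer Trbv1 probe sets, and for 3.46% of all. For the dimmer Trbv1 probe set it rests in experiment 2 on 17.7 in TCRgd CD8aa and 19.1 in TCRab CD8aa. Both are near the floor, so the order of these subsets is not settled there. That probe set also passed the filter only through TCRab arrays. The dimmest Trav9d-3 probe set had TCRgd CD8aa between the TCRab subsets in both. For the other 4 tested members, TCRgd CD8aa was lowest in both experiments and the order of TCRab CD8aa and TCRab CD8ab differed between them. After the mean of each experiment was subtracted, the log2 values of the 3 gamma probe sets correlated with each other over the 6 arrays at Pearson's r of 0.87 to 0.98. Their 21 pairs with alpha and beta probe sets all had r below 0, from −0.96 to −0.42. The 21 pairs among alpha and beta probe sets had r of 0.08 to 0.98. These points share their arrays and the scaling of each array, so the values are descriptions.

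Probe sets named for the same gene differed between the experiments to different extents, experiment 2 being the one with the high 3′ to 5′ ratios. The log2 difference of experiment 2 from experiment 1 was widest for the middle Trav9d-3 probe set, with −4.34 in TCRgd CD8aa, −2.63 in TCRab CD8aa and −3.66 in TCRab CD8ab. The brightest Trav9d-3 probe set had −0.94 in TCRgd CD8aa, −0.81 in TCRab CD8aa and 0.04 in TCRab CD8ab. The brighter Trbv1 probe set had −1.29 in TCRgd CD8aa, −1.35 in TCRab CD8aa and −0.49 in TCRab CD8ab. The dimmer Trbv1 probe set had −0.96 in TCRab CD8ab. Its differences in TCRgd CD8aa and TCRab CD8aa rest on values near the floor and are not given. Both Trbv13-2 probe sets were lower in experiment 2 in all subsets, with mean differences of −1.69 and −1.68. In TCRgd CD8aa, TCRab CD8aa and TCRab CD8ab the brighter had −2.18, −2.33 and −0.57, and the dimmer −1.90, −1.49 and −1.66. The gamma probe sets had means of −0.19 for Trgv1, −0.69 for Trgv4 and −0.72 for the probe set of both. Over all tested probe sets the median difference was between −0.15 and 0.06 in the 3 subsets. The part of RNA integrity in these differences was not tested.

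**Figure D5:**
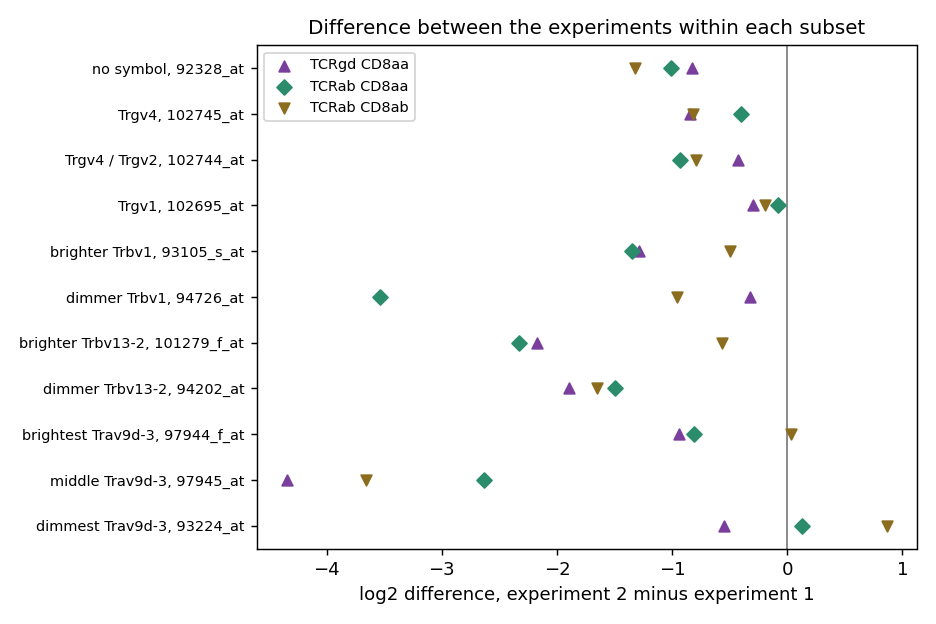
Log2 difference between experiment 2 and experiment 1 (horizontal axis) within TCRgd CD8aa (purple triangles), TCRab CD8aa (green diamonds) and TCRab CD8ab (brown inverted triangles) for the 11 members past the filter. Most points lie left of 0, and the middle Trav9d-3 probe set lies furthest left with −4.34 in TCRgd CD8aa. For the dimmer Trbv1 probe set the points of TCRgd CD8aa and TCRab CD8aa rest on values near the floor.

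Without the TCRgd CD8aa array of experiment 2 that subset keeps 1 array, so differences are given without calls. In the fit with the block they equal the differences within experiment 1, so they are no second check of these. Trgv4 had a log2 difference of 2.82 from the mean of both TCRab subsets. The joint Trgv4 and Trgv2 probe set had 0.91 and Trgv1 0.67. The brightest, middle and dimmest Trav9d-3 probe sets had −1.42, −1.99 and 0.34. The brighter and dimmer Trbv13-2 probe sets had −1.78 and −1.23, and the brighter Trbv1 −0.34. No value is given for the dimmer Trbv1 probe set, which was near the floor in TCRgd CD8aa. Within experiment 2 the difference of Trgv4 from the mean of both TCRab subsets was 2.58.

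Among the other genes of the receptor complex and its assembly, the sort marker Cd8b1 alone was called. Of 23 listed genes 11 had a probe set with their symbol and 9 had one past the filter, and the constant genes Trac, Trbc1, Trbc2, Trdc, Trgc1, Trgc2 and Trgc4 were not among them. With the block limma called 1 of the 9 lower in TCRgd CD8aa against TCRab CD8ab, beside 0.217% of all probe sets. It called 1 lower in TCRab CD8aa against TCRab CD8ab, beside 0.301% of all. In both cases this was the sort marker Cd8b1, and 0 were called in the other 2 comparisons. Without the block 0 were called. Cd3e, a signalling chain that both receptor types need, had 3397 and 1532 in TCRgd CD8aa, 2616 and 1343 in TCRab CD8aa, and 2056 and 1491 in TCRab CD8ab. Cd3g, another such chain, had a log2 difference of 0.21 ± 0.26 in TCRgd CD8aa from the mean of both TCRab subsets. Cd247, the zeta chain that relays the signal, had 1140 and 208 in TCRgd CD8aa, 366 and 135 in TCRab CD8aa, and 1345 and 552 in TCRab CD8ab, with TCRab CD8aa lowest in both experiments. Its difference of TCRab CD8aa from TCRab CD8ab was −1.96 ± 0.39 (limma adjusted p = 0.0675 with the block). Rag1, a recombinase subunit of receptor assembly, was dim, from 22.7 to 127 on its tested probe set, with no common order of the subsets.

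The genes most like the segments across the 6 arrays, after the mean of each experiment was subtracted, were sought among 7390 tested probe sets with 1 symbol. For Trgv4 they were Cradd, Traf4, Psmb5, Fam20c and H2-DMb1, with r of 0.99 for each. Traf4, an adaptor of the TNF receptor-associated family, had 4166 and 2138 in TCRgd CD8aa, 3505 and 1733 in TCRab CD8aa, and 3015 and 1516 in TCRab CD8ab, a far narrower range than that of Trgv4. For the brightest Trav9d-3 probe set they were Lbp, Bcl6, Ube2c, Dxo and Angel2, with r of 0.99 to 1.00. Bcl6, a transcriptional repressor of lymphocytes, had 731 and 1106 in TCRgd CD8aa, 1015 and 1692 in TCRab CD8aa, and 1007 and 1882 in TCRab CD8ab. For the unnamed probe set they were Gast, Cd79b, Tagln, Pja1 and Ost4, with r of 0.98 to 0.99. Cd79b, a chain of the B cell receptor, had 629 and 744 in TCRgd CD8aa, 429 and 500 in TCRab CD8aa, and 423 and 519 in TCRab CD8ab. With 6 arrays, 22 to 41 of the 7390 had r above 0.95 with each of these members, so a high r alone does not set a gene apart.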

How the data were processed

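The authors deposited MAS5 signal intensity, 1 value per probe set and array on a linear scale, per the submitters' processing notes, which name MAS5 without a version; other steps are not given in the sources used here. The table held 12488 probe sets, 66 of them controls. The deposited arrays had a trimmed mean near 500.4 (2% left out at each end) and were set to a common one, values under the 20th percentile (15.3) were raised to that floor before the log2 step. Probe sets with at least 2 arrays above the 40th percentile (56.4) were tested, which left 8299. Gene symbols came from the platform annotation, and the 9 member symbols all matched RefSeq.

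One limma 3.58.1 model (R 4.3.3, eBayes with intensity trend) over all 6 arrays gave 4 comparisons, which share arrays. The planned model had no block, and the alternative added the experiment as one. Other alternatives changed the scaling, floor, filter, trend and threshold or left out an array. The replicate number pairs the arrays because each experiment sorted all subsets from its own pool; deviations from the subset means correlated at 0.60 to 0.71 across probe sets. In the fit without the block, p-values rest on the spread between these pools. With the block they rest on the spread left after the shift between experiments is taken out. Neither measures the spread between mice. No 2 arrays shared more than 45 equal values. The script was tested on simulated data. Named genes were all members, a list of 23 receptor genes and the 5 probe sets most like 3 members. Members and lists were chosen with earlier results of these data known. The number of arrays limits the precision.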

Additional observations from a re-analysis of the deposited data

How the results depend on the processing

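With no block, 0 receptor segment probe sets were called in each comparison under every scaling, floor, filter, trend, threshold and left-out array tried. With the replicate block, 2 were called in TCRgd CD8aa against both TCRab subsets, 3 in TCRgd CD8aa against TCRab CD8ab, 0 in TCRgd CD8aa against TCRab CD8aa and 1 in TCRab CD8aa against TCRab CD8ab. In the same order these counts were 2, 5, 0 and 1 with quantile normalization, beside 7, 50, 1 and 72 of all 8299 probe sets. At an adjusted p under 0.10 they were 2, 4, 0 and 1, beside 7, 65, 2 and 109. They were 0 throughout with the block and no filter or no trend. A fit with an array left out keeps 1 array in that subset, so members called in such fits with the block are not counted here. In these fits the Trgv4 difference of TCRgd CD8aa from both TCRab subsets ranged from 2.58 to 2.82. That of the middle Trav9d-3 probe set ranged from −3.19 to −1.99. Over all probe sets the block called 7, 46, 2 and 68, against 0 without it, 0 in each with the block and no filter, and 1, 3, 1 and 6 with the block and no trend. Without TCRgd CD8aa replicate 1 the block called 138, 193, 114 and 182 of all probe sets, and without its replicate 2 it called 15, 66, 5 and 167. The cause of these changes was not tested.

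Leaving out an array turned the sign of 10 differences of tested members, none of them called. It also turned that of the unnamed probe set in TCRab CD8aa against TCRab CD8ab (−0.047 to 1.27). These ranges take fits with and without the block together. Without the block, a left-out array leaves subsets compared across experiments. With the block, no sign turned for the joint Trgv4 and Trgv2, the Trbv1 and the unnamed probe sets. The ranges of the 10 were −0.10 to 0.83 for the joint Trgv4 and Trgv2 probe set, −1.09 to 0.26 for the brighter Trbv1, −0.81 to 0.84 for the dimmer Trbv13-2, −0.62 to 0.29 for the brightest Trav9d-3 and −1.49 to 2.17 for the middle Trav9d-3 in TCRab CD8aa against TCRab CD8ab. They were −1.17 to 0.12 for the brighter Trbv1 and −0.70 to 0.34 for the dimmest Trav9d-3 in TCRgd CD8aa against both TCRab subsets. They were −0.99 to 0.36 for the brighter Trbv1, −0.028 to 1.01 for the dimmest Trav9d-3 and −3.49 to 0.050 for the dimmer Trbv1 in TCRgd CD8aa against TCRab CD8aa. No other setting turned a sign. Having 2 arrays in each subset limits the precision of all values.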
